A study of Mus musculus with 3 samples.

Results

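C2C12, an immortalised line of mouse myoblasts that leaves the cell cycle and fuses into multinucleated myotubes when differentiated, was compared between a library labelled Drp1 knockout and a library of such knockout cells that transiently expressed FLAG-Drp1. The comparison asks which transcripts differ between knockout cells with and without FLAG-Drp1. Drp1 is the product of Dnm1l, and FLAG is a short peptide tag. Both libraries are labelled as knockout cells, and both were taken at day 4 of myogenic differentiation. They are called KO and rescue here, and they are 2 of the 3 libraries of the series. The third, from wild-type (WT) cells at the same day, is given beside them for scale. It also entered the expression filter and the choice of transcript row. The sources used here do not say how the knockout was made, whether it is 1 clone, how FLAG-Drp1 was delivered or which share of the cells expressed it. There was 1 library per group, so no difference has a replicate check, no p-value was computed, and every statement describes these libraries.

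Drp1 is a GTPase of the dynamin family that is recruited to the outer mitochondrial membrane, assembles around the organelle and divides it. Mitofusins and Opa1 act in the opposite direction and join mitochondria. During muscle differentiation myoblasts fuse, build sarcomeres, replace developmental forms of contractile proteins by adult forms, and expand their energy supply, and the mitochondrial network is remodelled along the way.

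The gene counts summed to 13790417 in KO, 13925296 in rescue and 13894114 in WT. After scaling to library size, 13381 genes with a mean of at least 1 CPM (counts per library, each scaled to the same total) over the 3 libraries were tested, 11829 of them protein-coding. Of these, 174 genes were at least 2-fold higher in rescue than in KO (1.30%) and 77 were at least 2-fold lower (0.575%), 251 in all (1.88%). The median log2 ratio of rescue against KO over all genes tested was 0.00, and 90% of genes lay between -0.45 and 0.50 (5th and 95th percentiles). Most calls rested on few counts: 102 of the 174 higher genes and 59 of the 77 lower genes had under 50 counts in the higher library. With 200 or more counts, 26 genes were at least 2-fold higher and 2 were at least 2-fold lower. For each ratio a 95% counting interval was computed, which covers counting error only, and it is given below for many of them. That interval lay wholly above 2-fold for 41 genes (0.306%) and wholly below it for 5 (0.0374%), and it lay on 1 side of 0 for 35.3% of genes.

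The ratio moved with transcript length. Protein-coding genes were split by length into 5 groups of equal size. The shortest group, with a median length of 1307 bases, had a median log2 ratio of 0.17, and the longest, with a median of 7714 bases, had -0.16. The ratio was above 0 for 80.8% of the shortest group and 19.9% of the longest. For gene groups of short or long transcripts the median after removal of this trend is therefore given beside the plain one. The part of transcript length, or of RNA quality, in these ratios was not tested otherwise.

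**Figure D1:**
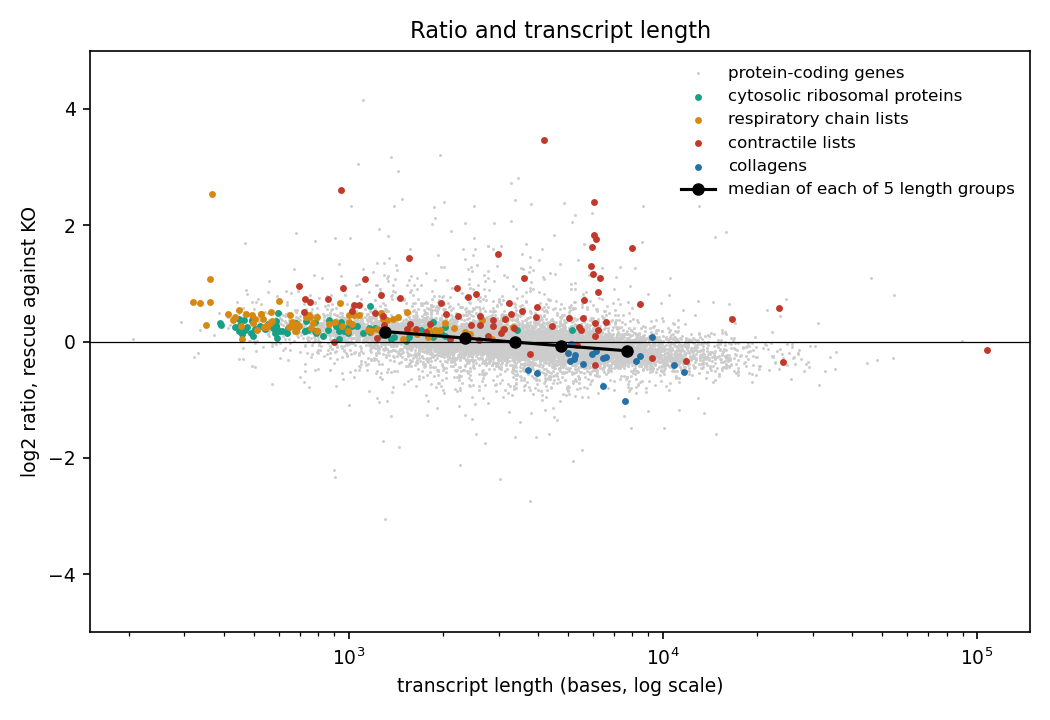
Log2 ratio of rescue against KO (vertical axis) against the length of the transcript used for each protein-coding gene (horizontal axis, log scale). Grey points are genes, coloured points are members of 4 gene groups, and the black line joins the medians of the 5 length groups, which go from 0.17 in the shortest to -0.16 in the longest. Ribosomal and respiratory chain genes lie at the short end, and most collagens lie at the long end.

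Dnm1l had 1284 counts in KO, 1481 in rescue and 1823 in WT. KO was the lowest library, and the log2 ratio of rescue against KO was 0.21 (interval 0.10 to 0.32). The deposited tables list 25 transcript rows of Dnm1l. In rescue 3 of those rows were 80 to 83 counts below the row used, against gaps of 1 to 14 counts for the same 3 rows in KO and 1 to 5 in WT. The shortest row was lower in every library, at 1202 counts in KO, 1294 in rescue and 1722 in WT. Whether these gaps come from the supplied FLAG-Drp1 RNA was not tested. The RNA level does not show how much Drp1 protein either library's cells held.

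The cells of both libraries expressed defining muscle genes at high levels. The 7 skeletal muscle markers (Acta1, Ckm, Myog, Mylpf, Tnnt3, Ttn and Des) summed to 12640 CPM in KO, 15760 in rescue and 13600 in WT. The 5 fibroblast markers summed to 3962 CPM in KO, 3071 in rescue and 2458 in WT. Most of that sum was Col3a1, which muscle precursors also express, while Lum and Thy1 were at 9 counts or fewer in every library. All 5 adipocyte and all 5 endothelial markers were at 5 counts or fewer. Other marker groups were not all low. The 5 smooth muscle markers summed to 4240 CPM in KO, 5218 in rescue and 3525 in WT. Most of that sum was Acta2, with 57215, 70373 and 48154 counts. The bone and cartilage markers summed to 61.9, 54.8 and 97.4 CPM, nearly all of it Sox9. Cardiac markers summed to 27.7, 50.8 and 29.0 CPM. In bulk RNA of this kind, fewer cells of a type and less RNA per cell cannot be told apart.

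**Figure D2:**
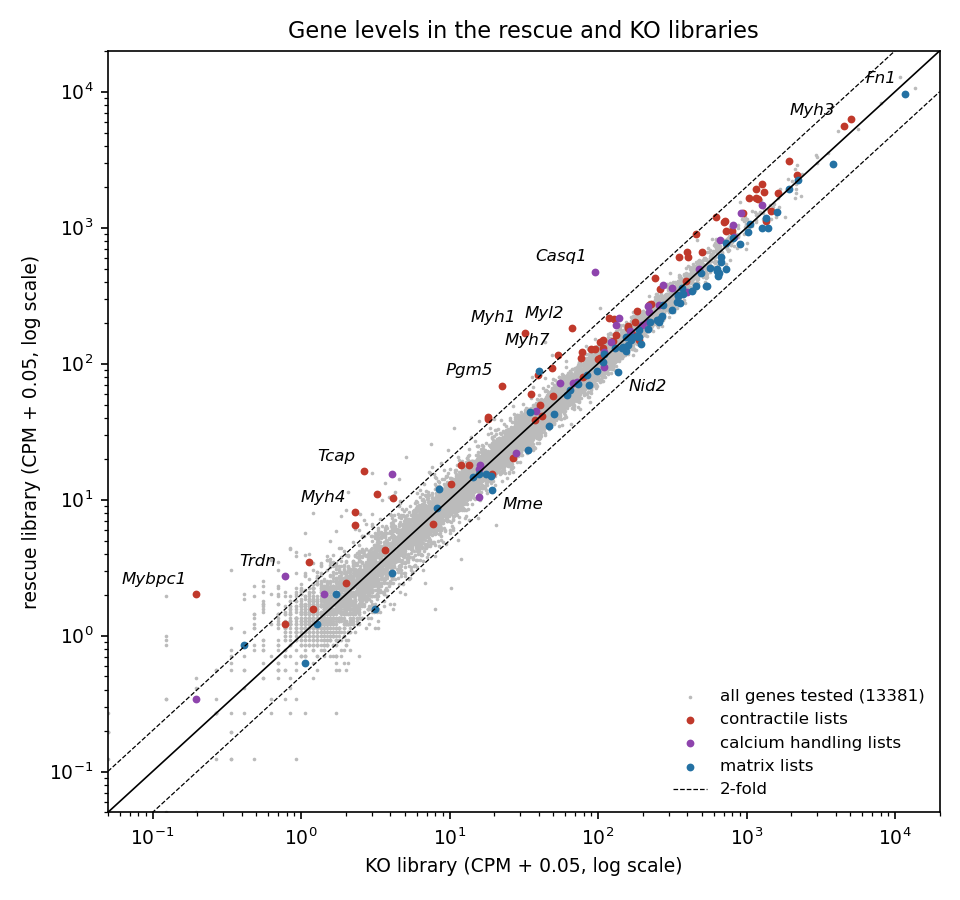
Level of each of the 13381 genes tested in the KO library (horizontal axis) and in the rescue library (vertical axis), in CPM on log scales. The solid line marks equal levels and the dashed lines 2-fold. Contractile genes (red) such as Myh1, Tcap and Pgm5 and the calcium store gene Casq1 (purple) lie above the upper dashed line, while matrix genes (blue) lie mostly below the solid line and within the dashed lines.

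By number, the contractile apparatus held more genes at least 2-fold higher in rescue than any other group of lists examined here. By share, the smaller groups of creatine and energy buffering (4 of 12 tested) and small heat shock proteins (2 of 8) stood higher. Of 86 listed genes of the sarcomere, 79 were tested. Of these, 14 were at least 2-fold higher in rescue (17.7%, background 1.30%), while none was at least 2-fold lower (background 0.575%). At a 1.5-fold threshold 32 were higher (background 3.81%) and none was lower (background 2.77%). The log2 ratio was above 0 for 71 of the 79 (background 50.3%). Their median was 0.44, and 0.45 with the length trend removed. The summed level of the 79 genes was 36336 CPM in KO, 48474 in rescue and 39275 in WT, so rescue was the highest library in sum. The 7 genes that were not tested had 16 counts or fewer in each library.

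Sarcomeric myosin heavy chains, the motors of the thick filament, had the largest median of the 46 lists, a log2 ratio of 1.30. Of the 9 tested, 7 were at least 2-fold higher in rescue (background over all genes 1.30%). Where 3 counts follow each other without library names, they stand in the order KO, rescue and WT, and a pair stands for KO and rescue. Myh1, the fast IIx form of adult muscle, had 441 counts in KO, 2327 in rescue and 3941 in WT. The rescue library lay between the others, and its 5.29-fold difference from KO corresponds to a log2 ratio of 2.40 (interval 2.25 to 2.55). Myh4, the fastest IIb form, had 31 counts in KO, 111 in rescue and 441 in WT (log2 ratio 1.83, interval 1.26 to 2.47). Myh8, the neonatal form, had 44, 150 and 333 counts (log2 ratio 1.76, interval 1.28 to 2.29). For all 3 of these genes WT was the highest library and KO the lowest.

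Another order over the libraries was seen for Myh7, Myh6 and Myh13. Myh7, the slow type I and cardiac beta form, had 741 counts in KO, 1584 in rescue and 822 in WT (log2 ratio 1.10, interval 0.97 to 1.23). Myh6, the cardiac alpha form, had 249 counts in KO, 555 in rescue and 263 in WT (log2 ratio 1.16, interval 0.94 to 1.38). Myh13, the extraocular form, had 57, 141 and 50 counts (log2 ratio 1.30, interval 0.86 to 1.78). In these 3 genes WT and KO were close, and rescue was the highest library, 1.97-fold above WT for Myh7 and 2.15-fold for Myh6. Myh7b, a slow-type relative, had 15 counts in KO, 47 in rescue and 117 in WT, and so had the order of Myh1, Myh4 and Myh8.

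The remaining heavy chains differed less. Myh3, the embryonic form, had 62250 counts in KO, 77629 in rescue and 50576 in WT (log2 ratio 0.32). Myh2, the fast IIa form, was the exception in direction, with 371 counts in KO, 279 in rescue and 373 in WT (log2 ratio -0.41, interval -0.64 to -0.18). Myh15 had 0 counts in every library, which allows up to 3 counts in each. Since these transcripts are of nearly equal length, their counts can be set side by side as shares. Myh3 made up 97.0% of the heavy chain counts in KO (Wilson 95% interval 96.8 to 97.1%), 93.7% in rescue and 88.9% in WT. The adult fast forms Myh1, Myh2 and Myh4 together made up 1.31% in KO (interval 1.23 to 1.40%), 3.28% in rescue (interval 3.16 to 3.40%) and 8.35% in WT. The rescue share of adult fast myosin thus lay between KO and WT, and Myh1 supplied most of the difference. Some of these genes are closely related neighbours in a cluster. The sources used here do not say how reads matching several genes were counted, so the split between such genes is uncertain.

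**Figure D3:**
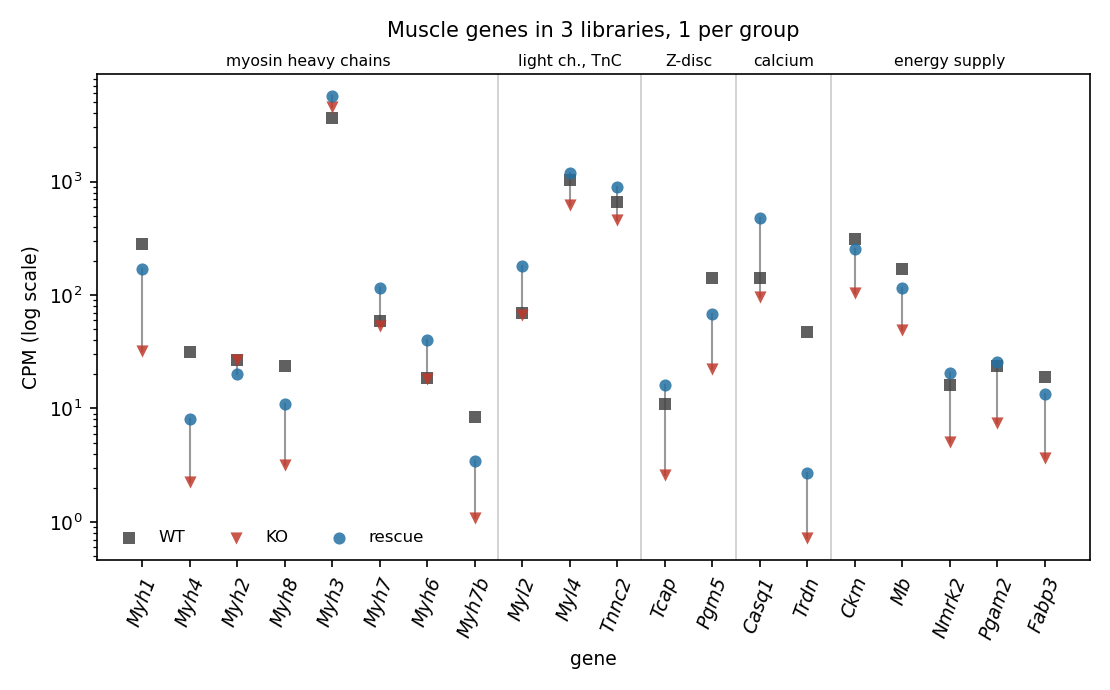
Level in CPM (vertical axis, log scale) of 20 muscle genes (horizontal axis) in the WT (squares), KO (triangles) and rescue (circles) libraries, with a grey line from KO to rescue. Rescue lies between KO and WT for Myh1, Myh4 and Myh8, above both for Myh7, Myl2, Tcap and Casq1, and nearer to KO than to WT for Trdn.

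Myosin light chains and their kinases all had a ratio above 0, 7 of 7 tested, with a median log2 ratio of 0.69 (0.53 with the length trend removed). Most of these transcripts are short, and 80.8% of the shortest length group of protein-coding genes were above 0. Myl2, the slow and ventricular regulatory light chain, had 925 counts in KO, 2504 in rescue and 976 in WT (log2 ratio 1.44, interval 1.33 to 1.55). WT and KO were again close and rescue was 2.71-fold above KO, as for the slow heavy chain Myh7. Myl4, the embryonic and atrial light chain, had 8610, 16367 and 14633 counts in KO, rescue and WT (log2 ratio 0.93). The fast forms Myl1 (17499 counts in KO, 29066 in rescue) and Mylpf (26543 in KO, 42658 in rescue) had log2 ratios of 0.73 and 0.69. Mylk2, the skeletal kinase that phosphorylates the regulatory light chain, had 163, 246 and 376 counts (log2 ratio 0.60, interval 0.31 to 0.89).

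Troponins, the calcium switch of the thin filament, likewise all had a ratio above 0, 8 of 8 tested. Their median log2 ratio was 0.63 (0.45 with the length trend removed), and 5 of the 8 were at least 1.5-fold higher (background 3.81%). Troponin transcripts are short as well, with a median of 1059 bases, and 80.8% of the shortest length group were above 0. Tnnc2, the fast calcium-binding subunit, had 6326 counts in KO, 12264 in rescue and 9325 in WT (log2 ratio 0.96). The slow tropomyosin-binding subunit Tnnt1 had 4840, 8422 and 6372 counts (log2 ratio 0.80), and the fast inhibitory subunit Tnni2 had 5467, 9101 and 6474 (log2 ratio 0.74). Fast and slow troponins did not separate: the slow Tnni1 and the fast Tnnt3 both had a log2 ratio of 0.63. Tnnc1, the slow and cardiac calcium-binding subunit, was at 16076, 22858 and 16027 counts (log2 ratio 0.51). The cardiac Tnni3 had 58 counts or fewer in KO and rescue, and its interval of -0.35 to 0.79 included 0.

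Of 14 tested genes of the thin filament and its regulators, 13 had a ratio above 0, with a median log2 ratio of 0.46 (0.54 with the length trend removed). The highest was Lmod3, a leiomodin that nucleates actin filaments, with 676 counts in KO, 1285 in rescue and 2098 in WT (log2 ratio 0.93, interval 0.79 to 1.07). Klhl41, a Kelch protein that stabilises nebulin, had 3344, 5870 and 6310 counts (log2 ratio 0.81, interval 0.75 to 0.88). Neb, nebulin itself, had 5580, 8328 and 6860 counts (log2 ratio 0.58), although its transcript is among the longest. The actins differed from each other: Actc1, the cardiac form used in developing muscle, was at 15957 counts in KO against 26634 in rescue (log2 ratio 0.74), and Acta1, the skeletal form, at 70182 and 86717 (log2 ratio 0.31). Tmod4, a capping protein of the pointed end, was the only 1 of the 14 below 0, with 106 counts in KO against 91 in rescue (interval -0.64 to 0.20).

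Among 14 tested thick filament, M-band and giant proteins, 12 had a ratio above 0 and 2 were at least 2-fold higher (background 1.30%). Mybpc1, the slow form of myosin binding protein C, was at 2 counts in KO, 27 in rescue and 223 in WT (log2 ratio 3.46, interval 1.77 to 6.88), so rescue was above KO and still 8.10-fold below WT. Mybpc2, the fast form, had 251, 534 and 230 counts (log2 ratio 1.09, interval 0.87 to 1.31). Myom1, the M-band crosslinker myomesin, had 1766, 2906 and 2469 counts (log2 ratio 0.72). Unc45b, a chaperone of myosin folding, had 1053, 1510 and 1488 counts (log2 ratio 0.52). Myo18b, an unconventional myosin needed for sarcomere assembly, had 10 counts in KO, 16 in rescue and 574 in WT, and its interval of -0.55 to 1.98 included 0. The giant protein Ttn, titin, was below 0, at a log2 ratio of -0.15. With the length trend removed Ttn turned to 0.22, so no direction is given for it.

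Z-disc and stretch-sensing genes had a median log2 ratio of 0.29 (0.30 with the length trend removed). Of 27 tested, 23 were above 0 and 4 were at least 2-fold higher (background 1.30%). Tcap, telethonin, which caps titin at the Z-disc, had 36 counts in KO, 222 in rescue and 155 in WT (log2 ratio 2.61, interval 2.11 to 3.18). Rescue was 6.18-fold above KO and also above WT. Pgm5, a protein of attachment sites related to phosphoglucomutase, had 310, 944 and 1977 counts (log2 ratio 1.61, interval 1.42 to 1.80). Actn2, the alpha-actinin of slow and cardiac Z-discs, had 31, 89 and 176 counts (log2 ratio 1.51, interval 0.92 to 2.16), whereas the fast form Actn3 had 10107, 12990 and 9200 (log2 ratio 0.36). Smpx, a small stress-responsive muscle protein, had 544, 1144 and 529 counts (log2 ratio 1.07, interval 0.93 to 1.23). For Pgm5 and Actn2 rescue lay between KO and WT, and for Smpx it lay above both.

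Of the stress-responsive ankyrin repeat genes, Ankrd23 had a higher ratio than Ankrd1 and Ankrd2. Ankrd2 had 5380 counts in KO, 5579 in rescue and 815 in WT (log2 ratio 0.06, interval 0.00 to 0.11). Ankrd1 had 22407, 24923 and 13446 counts (log2 ratio 0.16). Csrp3, a mechanosensitive LIM protein, had 575 counts in KO against 569 in rescue (interval -0.18 to 0.16). Ankrd23 had 488, 827 and 386 counts (log2 ratio 0.76, interval 0.60 to 0.93) and was highest in rescue. Flnc, a long actin crosslinker, had a log2 ratio of -0.28, and -0.09 with the length trend removed.

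Calcium handling genes as a group were less different than the contractile genes. Of 33 tested, 3 were at least 2-fold higher in rescue (background 1.30%) and none was at least 2-fold lower (background 0.575%). Of the 33, 27 were above 0, and the median log2 ratio was 0.18. Casq1, calsequestrin, the main calcium-binding protein inside the sarcoplasmic reticulum of fast fibres, stood apart. It had 1318 counts in KO, 6534 in rescue and 1972 in WT (log2 ratio 2.31, interval 2.23 to 2.40). Rescue was 4.97-fold above KO and 3.38-fold above WT, so its level in rescue was far outside the span between KO and WT. Casq2, the slow and cardiac calsequestrin, had 12716, 17569 and 10378 counts (log2 ratio 0.47). Of the calcium pumps that refill the store, Atp2a1, the fast form, had 3802, 5185 and 7107 counts (log2 ratio 0.45), and Atp2a2, the slow form, had 9155, 11211 and 14595 (log2 ratio 0.30). Hrc, a calcium-binding protein of the same compartment, had 1907, 2999 and 2665 counts (log2 ratio 0.66).

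At the triad, where the plasma membrane signals to the store, 2 of 20 tested genes were at least 2-fold higher (background 1.30%). Popdc2, a membrane protein that binds cyclic AMP, had 56 counts in KO, 210 in rescue and 181 in WT (log2 ratio 1.90, interval 1.48 to 2.36). Trdn, triadin, which anchors calsequestrin to the release channel, had 10 counts in KO, 37 in rescue and 663 in WT (log2 ratio 1.84, interval 0.85 to 3.06). Rescue was still 17.6-fold below WT for Trdn, although its ratio to KO was among the larger ones. Cav3, muscle caveolin, had 2 counts in KO, 4 in rescue and 160 in WT, and its interval of -1.80 to 4.47 included 0. The voltage sensor Cacna1s (2262 counts in KO, 2374 in rescue), the adaptor Stac3 (523 and 616) and Jph2, which ties the membranes together (6556 and 6795), had log2 ratios of 0.07, 0.24 and 0.05. The release channel Ryr1 had a log2 ratio of -0.23, and 0.01 with the length trend removed. Mtm1, a phosphatase of membrane lipids, was lower, with 218, 143 and 124 counts in KO, rescue and WT (log2 ratio -0.60, interval -0.92 to -0.29). Sln and Pln, small inhibitors of the calcium pumps, had 1 count each in KO and in rescue and were not tested.

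The regions upstream of 4 of these genes are shown because the genes were at least 3-fold higher in rescue with intervals wholly above 2-fold, and because E-boxes, bound by MyoD-family factors, and MEF2 motifs are the textbook elements of muscle promoters. They were chosen after the values were seen. Each is the 250 bases before the RefSeq transcript start on GRCm38.p6, read 5′ to 3′ on the gene's strand, and the capitals mark matches to CANNTG (the E-box) or to the MEF2 motif. Myh1 lies at chr11:67199852-67200101 on the plus strand, Myh4 at chr11:67237562-67237811 on the plus strand, Casq1 at chr1:172219896-172220145 on the minus strand and Pgam2, the muscle phosphoglycerate mutase, at chr11:5803797-5804046 on the minus strand.
Myh1: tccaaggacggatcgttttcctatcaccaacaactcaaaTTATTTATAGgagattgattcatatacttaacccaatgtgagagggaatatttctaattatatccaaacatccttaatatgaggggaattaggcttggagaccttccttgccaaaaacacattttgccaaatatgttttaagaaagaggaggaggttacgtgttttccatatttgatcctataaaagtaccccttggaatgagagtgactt
Myh4: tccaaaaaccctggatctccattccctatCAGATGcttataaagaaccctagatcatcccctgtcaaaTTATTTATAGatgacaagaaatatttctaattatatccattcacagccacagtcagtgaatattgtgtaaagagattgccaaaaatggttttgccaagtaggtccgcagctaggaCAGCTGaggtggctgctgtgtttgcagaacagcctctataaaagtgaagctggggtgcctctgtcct
Casq1: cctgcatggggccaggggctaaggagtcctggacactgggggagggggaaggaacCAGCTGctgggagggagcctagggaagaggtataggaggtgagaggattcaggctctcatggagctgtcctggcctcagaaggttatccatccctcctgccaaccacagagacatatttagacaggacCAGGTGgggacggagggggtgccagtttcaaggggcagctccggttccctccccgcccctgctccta
Pgam2: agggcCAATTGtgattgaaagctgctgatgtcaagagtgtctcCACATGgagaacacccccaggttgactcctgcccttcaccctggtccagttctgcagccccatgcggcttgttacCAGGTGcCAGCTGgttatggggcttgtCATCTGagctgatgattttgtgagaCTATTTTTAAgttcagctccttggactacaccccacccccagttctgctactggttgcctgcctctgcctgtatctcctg

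Myh1 and Myh4 hold the same MEF2 match, TTATTTATAG, and Myh1 has no E-box in this window. Pgam2 holds 5 E-boxes and 1 MEF2 match, and Casq1 holds 2 E-boxes and no MEF2 match. Over all genes tested, 9936 of 13381 had an entry in the promoter table, and of these 61.1% held CANNTG and 2.1% the MEF2 motif on either strand in at least 1 window. Of the 114 genes with an entry among the 174 that were at least 2-fold higher, 75.4% held CANNTG and 11.4% the MEF2 motif. Of the 48 with an entry among the 77 that were at least 2-fold lower, 54.2% held CANNTG and 2.08% the MEF2 motif. The E-box form CAGCTG, which is counted within CANNTG as well, was in 14.5% of all genes tested, 22.8% of the higher genes and 12.5% of the lower. Of the 66 tested contractile genes with an entry, 81.8% held CANNTG, 34.8% CAGCTG and 16.7% the MEF2 motif. Over the 32851 windows of the table, which all have this length, the shares were 66.2%, 13% and 2.92%. A match is a run of letters and not a bound site, and no match says only that these letters are not in the window.

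Genes that buffer and carry energy in muscle were among the largest differences. Of 12 tested genes of the list for creatine and energy buffering, 4 were at least 2-fold higher in rescue (background 1.30%). The median log2 ratio was 0.32 (0.23 with the length trend removed). Ckm, the cytosolic muscle creatine kinase, had 1424 counts in KO, 3527 in rescue and 4406 in WT (log2 ratio 1.31, interval 1.22 to 1.40). Mb, myoglobin, which stores oxygen, had 679, 1602 and 2368 counts (log2 ratio 1.24, interval 1.11 to 1.37). Nmrk2, a muscle kinase in the synthesis of NAD from nicotinamide riboside, had 70, 284 and 228 counts (log2 ratio 2.02, interval 1.64 to 2.42). KO was the lowest library for all 3, with rescue below WT for Ckm and Mb and above it for Nmrk2. Ampd1, muscle AMP deaminase, had 6, 26 and 12 counts (interval 0.81 to 3.69). The brain-type kinase Ckb (876 counts in KO, 965 in rescue) and the creatine transporter Slc6a8 (1613 and 1469) had log2 ratios of 0.14 and -0.13.

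In glycolysis and glycogen metabolism 29 of 36 tested genes had a ratio above 0, with a median log2 ratio of 0.15 (0.13 with the length trend removed) and 2 at least 2-fold higher (background 1.30%). One of these was Ppp1r3a, a glycogen-targeting subunit of protein phosphatase 1 named after its values were seen, with only 3 counts in KO, 7 in rescue and 32 in WT (interval -0.91 to 3.81). Ppp1r3a passed the 1 CPM filter only through its WT counts. Among members with 50 or more counts in the higher of the compared libraries, the highest were muscle isoforms. Pgam2 had 103 counts in KO, 353 in rescue and 331 in WT (log2 ratio 1.77, interval 1.46 to 2.11), which put rescue next to WT. Pygm, muscle glycogen phosphorylase, had 1152, 1865 and 1570 counts (log2 ratio 0.70), and Eno3, muscle enolase, had 4214, 6370 and 9489 (log2 ratio 0.60). Pygb, the brain form of the phosphorylase, had 1015 counts in KO against 921 in rescue (log2 ratio -0.14), and Hk2, hexokinase 2, had 2838 and 2507 (log2 ratio -0.18).

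Fatty acid uptake and oxidation had 3 of 35 tested genes at least 2-fold higher (background 1.30%). The median log2 ratio was 0.11 (0.05 with the length trend removed). Fabp3, the muscle and heart fatty acid binding protein, had 50 counts in KO, 183 in rescue and 268 in WT (log2 ratio 1.86, interval 1.42 to 2.36). Cd36, a fatty acid transporter of the plasma membrane, had 217, 520 and 182 counts (log2 ratio 1.26), so rescue was 2.91-fold above WT. Ucp3, a mitochondrial carrier of muscle, had 37, 91 and 38 counts (log2 ratio 1.29, interval 0.74 to 1.89). Fabp3 followed the order of Ckm over the libraries, while Cd36 and Ucp3 were highest in rescue with WT and KO close, as for Myh7 and Myl2. Cpt1a, the liver-type carnitine transferase that admits fatty acids to mitochondria, was lower, with 1103, 845 and 724 counts (log2 ratio -0.38, interval -0.51 to -0.25). In pyruvate oxidation and the citric acid cycle none of 30 tested genes was 1.5-fold different, near the background of 3.81% higher and 2.77% lower. The median was 0.14, or 0.09 with the length trend removed. Mdh1, cytosolic malate dehydrogenase, was the highest (1923 counts in KO, 2483 in rescue, log2 ratio 0.37) and Pdk4, the kinase that inhibits pyruvate dehydrogenase, the lowest (377 and 300, log2 ratio -0.33).

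All 84 tested nuclear genes of the respiratory chain and ATP synthase had a ratio above 0, but the size depended on transcript length. Their median log2 ratio was 0.31, and 0.12 with the length trend removed, and their median transcript length was 782 bases. The 79 tested cytosolic ribosomal protein genes, of median length 783 bases, also all had a ratio above 0, with a median of 0.21, and 0.01 with the trend removed. Mitochondrial ribosomal proteins (76 of 78 above 0, median 0.24, and 0.11 with the trend removed) and mitochondrial import genes (29 of 32, median 0.22, and 0.12) lay between. Only 2 of the 84 respiratory chain genes (2.38%) were at least 2-fold higher, near the background of 1.30%. Both are isoforms of cytochrome oxidase made in heart and muscle. Cox8b had 120 counts in KO, 253 in rescue and 277 in WT (log2 ratio 1.08, interval 0.76 to 1.40). Cox7a1, named after its values were seen, had 8, 49 and 48 counts (log2 ratio 2.54, interval 1.53 to 3.91). With the length trend removed these ratios were 0.82 for Cox8b and 2.29 for Cox7a1.

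The forms of the same subunits that most tissues use differed less, and they too are named after their values were seen. Cox7a2 had 773 counts in KO, 1040 in rescue and 1246 in WT (log2 ratio 0.43), and Cox8a had 2997, 3563 and 3346 (log2 ratio 0.25). Per length, Cox8a stood at 399 CPM per kilobase in KO against 24.0 for Cox8b, and Cox7a2 at 74.3 against 1.58 for Cox7a1. The muscle forms were thus the minor ones in KO, and they remained so in rescue, at 50.6 for Cox8b and 9.72 for Cox7a1. Another muscle isoform, Cox6a2, chosen in the same way, did not follow them, with 1053 counts in KO, 1264 in rescue and 305 in WT (log2 ratio 0.27, and 0.02 with the length trend removed). In complex I the highest ratio was that of Ndufa2, an accessory subunit, with 431, 695 and 598 counts (log2 ratio 0.69, interval 0.52 to 0.87, and 0.44 with the trend removed). Sdha, the flavoprotein of complex II, was near 0, with 3097 counts in KO against 3204 in rescue.

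Of 30 tested genes of mitochondrial fission and fusion, the machinery in which Drp1 acts, none was 2-fold different, near the background of 1.88% for genes 2-fold different in either direction. Of the 30, 19 had a ratio above 0, and the median log2 ratio was 0.07. Fis1, an adaptor of the outer membrane, had 896 counts in KO, 1208 in rescue and 1561 in WT (log2 ratio 0.43, interval 0.31 to 0.56, and 0.24 with the length trend removed). Mief2, which recruits Drp1, had 384, 455 and 444 counts (log2 ratio 0.25). Inf2, an actin nucleator that acts at division sites, had 1751, 1431 and 1727 counts (log2 ratio -0.29), and Dnm2, a related dynamin, had 2283, 1986 and 1759 (log2 ratio -0.20). The extremes of the list had few counts, and their intervals included 0. Miga1, a mitochondrial fusion factor named after its values were seen, had 23, 12 and 16 counts (log2 ratio -0.91, interval -2.08 to 0.13), and Mtfr2, a fission regulator, had 33, 50 and 67 (log2 ratio 0.59, interval -0.06 to 1.28). Regulators of mitochondrial biogenesis split evenly, with 11 of 22 above 0 and a median of 0.00. Tfam, which packages mitochondrial DNA, was at 758 counts in KO against 896 in rescue (log2 ratio 0.24), and Nrip1, a corepressor, was at 620 and 513 (log2 ratio -0.27, and 0.00 with the trend removed).

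**Figure D4:**
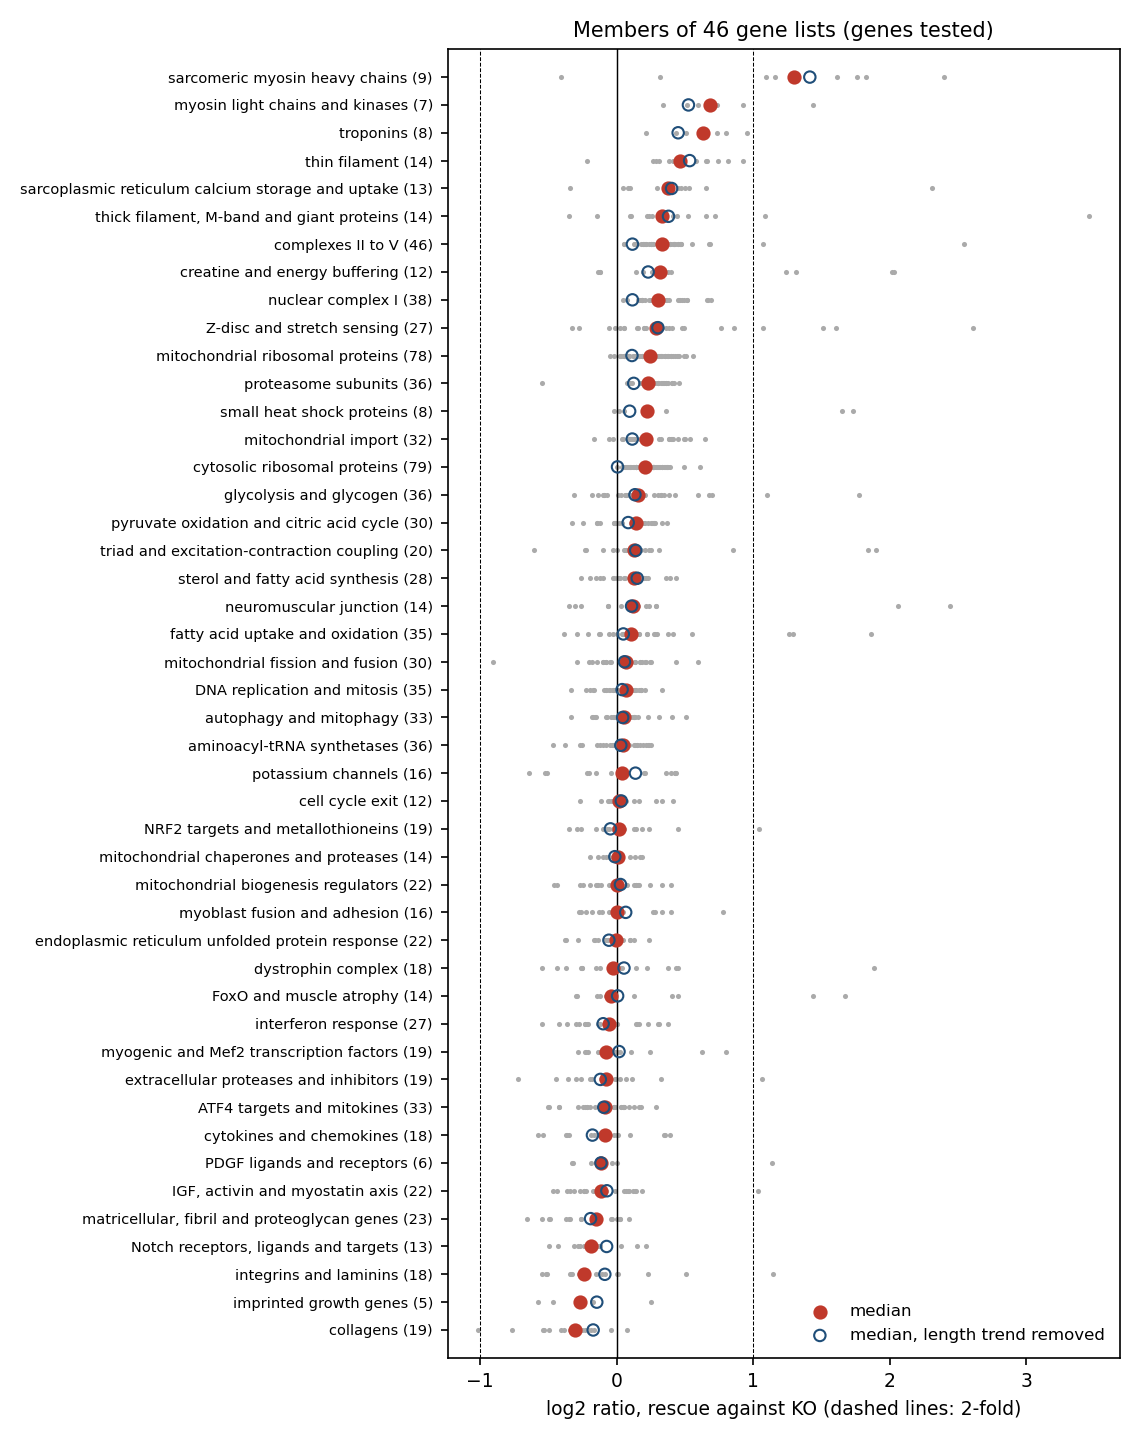
Log2 ratio of rescue against KO (horizontal axis) for the tested members of 46 gene lists (vertical axis, number tested in brackets). Grey points are genes, filled red points list medians, open blue points list medians with the length trend removed, and dashed lines mark 2-fold. Myosin heavy chains, light chains, troponins and thin filament stand at the top, with the heavy chain median at 1.30, and collagens at the bottom with -0.30. The other contractile lists lie lower, among the calcium store and respiratory chain lists. The ribosomal protein median moves from 0.21 to 0.01.

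Membrane and synapse genes held a few large differences in lists that otherwise stayed near 0. Colq, the collagen-like tail that anchors acetylcholinesterase at the neuromuscular junction, had 14 counts in KO, 78 in rescue and 142 in WT (log2 ratio 2.44, interval 1.65 to 3.42). Nrxn3, a synaptic adhesion protein, had 27, 114 and 207 counts (log2 ratio 2.06, interval 1.47 to 2.74). For both, rescue lay between KO and WT. Acetylcholine receptor subunits were far more abundant and nearly level, with 14930 counts in KO against 18243 in rescue for Chrna1 (log2 ratio 0.29). Agrn, the nerve signal that clusters the receptors, was lower in rescue, with 3813, 2988 and 1487 counts (log2 ratio -0.35, and -0.19 with the length trend removed). In the dystrophin complex 8 of 18 tested genes were above 0. Dmd, dystrophin, had 14, 53 and 42 counts (log2 ratio 1.89, interval 1.05 to 2.89), few for a transcript of 15882 bases. Of the sarcoglycans, Sgca (720 counts in KO, 934 in rescue) had a log2 ratio of 0.38, and Sgcd (152 and 112) had -0.44.

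Small heat shock proteins, chaperones that are abundant in muscle, had 2 of 8 at least 2-fold higher (background 1.30%). Hspb7, which protects sarcomeric filaments, had 148 counts in KO, 464 in rescue and 341 in WT (log2 ratio 1.65, interval 1.38 to 1.93). The more abundant Cryab (3720 counts in KO, 4342 in rescue) and Hspb1 (4447 and 4606) had log2 ratios of 0.23 and 0.05, and with the length trend removed Hspb1 turned to -0.15.

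Transcription factors of the myogenic programme did not differ as a group: 6 of 19 tested had a ratio above 0 and the median log2 ratio was -0.07, or 0.02 with the length trend removed. The largest was Mef2c, a MADS-box factor of muscle genes, with 305 counts in KO, 530 in rescue and 1289 in WT (log2 ratio 0.80). Tbx15, a T-box factor linked to glycolytic fibres, had 690, 1064 and 1111 counts (log2 ratio 0.63, interval 0.49 to 0.77). Both had KO lowest and WT highest. Myod1, the determination factor, had 990, 1174 and 1476 counts (log2 ratio 0.25), and Myog, myogenin, had 16122, 17277 and 11853 (log2 ratio 0.10, and -0.02 with the trend removed). Mef2a and Mef2d had log2 ratios of -0.14 and -0.07. The lowest, Tead1, which binds muscle enhancers, was at 4263 counts in KO against 3503 in rescue (log2 ratio -0.28, and -0.08 with the trend removed). Pax7, Pax3 and Myf6 had 8 counts or fewer in every library and were not tested.

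Fusion genes were divided. Mymx, the small fusogen myomixer, had 838 counts in KO, 1436 in rescue and 1820 in WT (log2 ratio 0.78, interval 0.66 to 0.90, and 0.57 with the length trend removed). Mymk, its partner myomaker, had 8428, 10593 and 10136 counts (log2 ratio 0.33). Cdh15, M-cadherin, had 2756, 3318 and 9651 counts (log2 ratio 0.27), so rescue was still 2.85-fold below WT. Itga7, the laminin receptor of muscle, was level, with 26653 counts in KO against 26608 in rescue. Over the 16 tested fusion and adhesion genes the median was 0.00. Of 13 tested Notch genes 3 had a ratio above 0, with a median of -0.18, and -0.07 with the trend removed. Notch3, a receptor, had 2468, 1748 and 2521 counts (log2 ratio -0.49, and -0.33 with the trend removed), and the target Heyl, at 64, 58 and 622 counts, stayed at the KO level.

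Some genes that had very few counts in KO had few in rescue as well. Besides Trdn, Cav3 and Myo18b, Pdgfd, a growth factor of the PDGF family and named after its values were seen, had 2 counts in KO, 5 in rescue and 416 in WT. Its log2 ratio of 1.14 has an interval of -1.29 to 4.72, so a difference between rescue and KO was not detectable at this depth, while rescue was 81.6-fold below WT. Myo18b and Cav3 were 35.2-fold and 39.2-fold below WT in rescue. For these 3 genes the rescue library was far nearer to KO than to WT. All 3 passed the 1 CPM filter only through their WT counts, so low levels in both KO and rescue followed from how they were admitted. Among signalling genes, Fst, follistatin, a secreted inhibitor of myostatin and activin, had 193, 396 and 713 counts (log2 ratio 1.04, interval 0.79 to 1.30). Fbxo40, a muscle ubiquitin ligase subunit, had 21, 68 and 153 counts (log2 ratio 1.67, interval 0.97 to 2.48). Igf1r, the growth factor receptor, was lower in rescue, with 2381, 1755 and 1632 counts (log2 ratio -0.44, and -0.21 with the length trend removed).

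The amino acid stress response, which the transcription factor ATF4 drives and which is known to respond to mitochondrial stress, stayed near the KO level in rescue. None of 33 tested genes was 1.5-fold different in either direction, near the background of 3.81% higher and 2.77% lower. Of the 33, 11 had a ratio above 0 (background 50.3%), and the median log2 ratio was -0.08 (-0.09 with the length trend removed). Their summed level was 4881 CPM in KO, 4748 in rescue and 2345 in WT. Fgf21, a secreted hormone, had 815 counts in KO, 994 in rescue and 151 in WT (log2 ratio 0.29, and 0.09 with the trend removed). Mthfd2, a mitochondrial enzyme of folate metabolism, had 2354, 2565 and 967 counts (log2 ratio 0.13). At the other end Aldh1l2, its neighbour in the same pathway, had 3227, 2399 and 801 counts (log2 ratio -0.42, interval -0.50 to -0.35), and Slc7a11, the cystine transporter, had 115, 81 and 34 (log2 ratio -0.50, interval -0.93 to -0.08). For all 4 genes rescue was above WT.

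**Figure D5:**
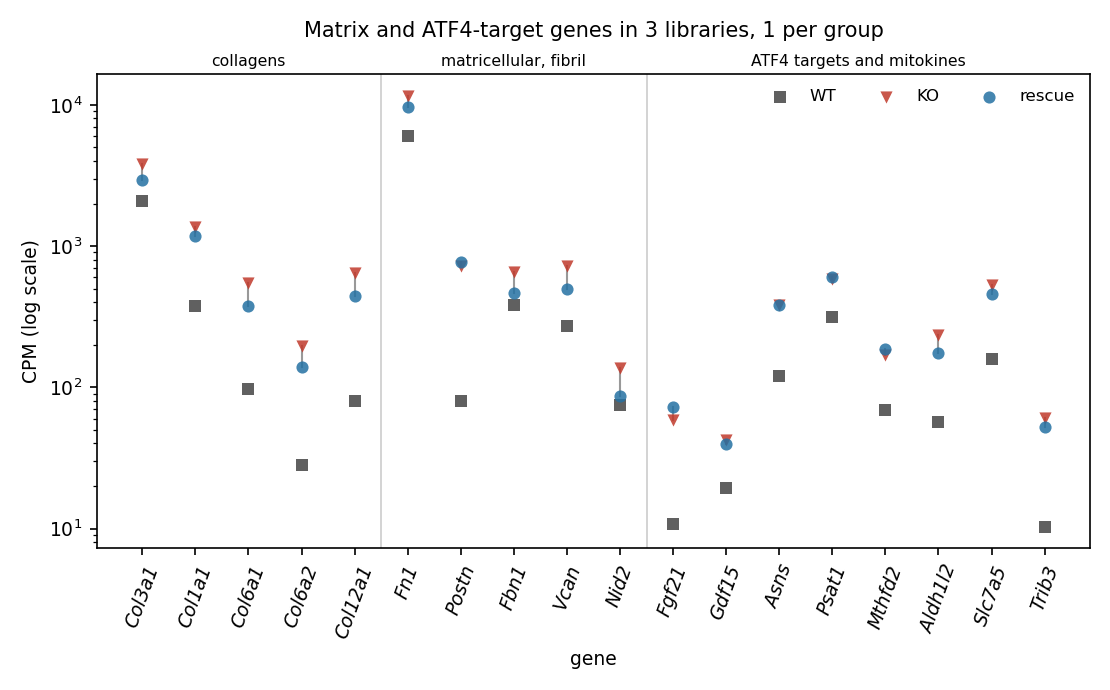
Level in CPM (vertical axis, log scale) of 10 matrix genes and 8 ATF4 targets or mitokines (horizontal axis) in the WT (squares), KO (triangles) and rescue (circles) libraries. Rescue lies below KO for Col6a1, Col12a1, Vcan, Fbn1, Nid2 and the ATF4 target Aldh1l2. It lies closer to KO for Postn and for most of the other ATF4 targets, where WT is the lowest library. Most genes plotted were chosen after their values were seen.

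Extracellular matrix genes mostly had ratios below 0. Of 79 tested, 64 had a ratio below 0 (background 49.7%), 15 were above 0, and the median log2 ratio was -0.20, or -0.13 with the length trend removed. Their transcripts are long, with a median of 5222 bases, so 49.7% is not a background of like length. Among protein-coding genes the ratio was above 0 for 34.1% of the next-longest length group (median 4743 bases) and 19.9% of the longest. At least 1.5-fold lower were 4 (background 2.77%), of which 1 was at least 2-fold lower (background 0.575%). At least 1.5-fold higher were 2 (background 3.81%), and both were past 2-fold: Itgb1bp2 and Serpine2, a protease inhibitor named after its values were seen, with 5 counts in KO, 11 in rescue and 52 in WT. Serpine2 passed the 1 CPM filter only through its WT counts. The summed level of the 79 genes was 44668 CPM in KO, 38063 in rescue and 28682 in WT, so rescue lay between the other libraries. Of the fibroblast markers, Col3a1 is itself one of these genes. Of the others, Dcn had 1787 counts in KO and 1792 in rescue, Pdgfra had 240 and 191, and Lum and Thy1 had 1 or fewer in both.

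Collagens, the fibre and network proteins, were below 0 for 18 of 19 tested genes, with a median log2 ratio of -0.30 (-0.17 with the length trend removed). Their median transcript length was 6109 bases, and only 19.9% of the longest group of protein-coding genes were above 0. Col6a1, a chain of the microfibrils around muscle fibres, had 7507 counts in KO, 5164 in rescue and 1370 in WT (log2 ratio -0.54, interval -0.59 to -0.49). Its partner Col6a2 had 2694, 1912 and 397 counts (log2 ratio -0.49, interval -0.58 to -0.41). Col12a1, a fibril-associated chain, had 8825, 6099 and 1127 counts (log2 ratio -0.53, and -0.31 with the trend removed). Col3a1, a fibrillar chain, had 52635, 40310 and 29225 counts. In each of these rescue was below KO and above WT. Col11a1, named after its values were seen, was the only 1 of the 79 matrix genes at least 2-fold lower, with 43, 21 and 0 counts, and its counts are few.

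Among other matrix proteins, Nid2, a basement membrane linker, had 1884 counts in KO, 1191 in rescue and 1048 in WT (log2 ratio -0.66, interval -0.76 to -0.55), which put rescue next to WT. Vcan, a large proteoglycan, had 9976, 6825 and 3791 counts (log2 ratio -0.54, and -0.32 with the length trend removed), and Fbn1, fibrillin, had 9015, 6391 and 5413 (log2 ratio -0.49, and -0.30). Postn, periostin, behaved otherwise, with 9959, 10578 and 1120 counts (log2 ratio 0.09, interval 0.05 to 0.13), so rescue was 9.63-fold above WT and at the KO level. Dcn, decorin, was lower in KO than in WT and level in rescue, with 1787, 1792 and 5177 counts. Mme, a membrane peptidase, had 267, 161 and 10 counts (log2 ratio -0.73, interval -1.02 to -0.44). Itga11, a collagen receptor subunit, had 463, 317 and 64 counts (log2 ratio -0.54, interval -0.75 to -0.33), and Lama5, a laminin chain, had 7322, 5137 and 4473 (log2 ratio -0.51, and -0.29 with the trend removed). Itgb1bp2, melusin, a muscle chaperone that binds integrin and is listed with them, was on the other side, with 549, 1213 and 959 counts (log2 ratio 1.15). Pdgfrb and Pdgfra, receptors of mesenchymal cells, were lower, at 2837 and 240 counts in KO against 2274 and 191 in rescue (log2 ratios -0.32 and -0.33).

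Among genes with 200 or more counts in whichever library was higher, and with symbols of the form LOC, Gm or Rik left out, the 20 lowest ratios ranged from -0.89 to -0.62 and the 20 highest from 1.14 to 2.61. The lowest protein-coding ones included Zbed6, a repressor of Igf2 and other growth genes, with 1223 counts in KO, 720 in rescue and 828 in WT (log2 ratio -0.76, interval -0.90 to -0.63). Trim56, a ubiquitin ligase of innate immunity, had 367, 218 and 236 counts (log2 ratio -0.75), and Lnpep, a membrane aminopeptidase that traffics with the glucose transporter GLUT4, had 1038, 634 and 669 (log2 ratio -0.71). In these 3 genes rescue was slightly below WT. Vdr, the vitamin D receptor, had 752, 480 and 164 counts (log2 ratio -0.64, interval -0.81 to -0.48), P2rx3, an ATP-gated channel, had 221, 135 and 12 (log2 ratio -0.71), and Piezo2, a stretch-gated channel, had 1009, 656 and 327 (log2 ratio -0.62, and -0.41 with the length trend removed). In those rescue lay between KO and WT.

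The 20 highest included genes outside the muscle structure lists. Padi2, an enzyme that converts arginine to citrulline in proteins, had 41 counts in KO, 216 in rescue and 72 in WT (log2 ratio 2.39, interval 1.91 to 2.92), and was 3.06-fold above WT. Bc1, a short noncoding RNA that belongs to a repeat family, had 608, 2000 and 328 counts (log2 ratio 1.72, interval 1.59 to 1.85). Its 154 bases resemble many genomic copies, so its count is uncertain. Abra, an activator of the actin-regulated factor SRF, had 105, 237 and 383 counts (log2 ratio 1.17), and Asb2, a muscle ubiquitin ligase subunit, had 99, 219 and 425 (log2 ratio 1.14). Art1, a membrane ADP-ribosyltransferase of muscle, had 134, 317 and 459 counts (log2 ratio 1.24), and Ablim3, an actin-binding LIM protein, had 492, 1093 and 1595 (log2 ratio 1.15). For Abra, Asb2, Art1 and Ablim3 KO was the lowest library and rescue stayed below WT, while Padi2 and Bc1 were highest in rescue.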

How the data were processed

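Raw sequence reads were not used. The submitters' processing notes name featureCounts 2.0.0, HISAT2 2.2.1 and cutadapt 1.9.1, and as genome build GRCm39. The sources used here do not give the settings of these tools or of strand. The deposited count column holds whole numbers per transcript with no normalization, per the file headers and values. The RPKM column deposited by the authors is the count per kilobase scaled to the total of the table, and the TPM column deposited by the authors is scaled to a fixed sum. Both were recomputed from counts and lengths and differed by at most 4.98e-06 and 4.4e-06, and neither was used further.

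The tables hold 139023 transcript rows of 46316 gene symbols. Rows of a gene held nearly equal counts: in 5388 well-counted genes the lowest row held a median of 98.0% of the highest. The gene count was therefore the row with the highest count summed over the 3 libraries. Library sizes were adjusted by TMM factors from edgeR 4.0.16 (1.01 for WT, 1.00 for KO, 0.989 for rescue) in R 4.3.3. Genes with a mean of 1 CPM or more over the 3 libraries were kept. The log2 ratio was taken after adding 0.5 to each count, with an exact conditional (Clopper-Pearson) 95% counting interval. No molecular identifiers are described, so reads need not be separate molecules. With 1 library a side no model was tested. A lowess curve of the ratio on log transcript length was subtracted as an alternative. The calculation was tested on simulated data.

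The comparison, the 46 gene lists (1265 entries, 1247 distinct genes, 1077 tested) and the promoters shown were chosen with earlier results of these data known. Named genes are Dnm1l, every member of the contractile, calcium handling, creatine and myogenic lists, the 20 highest and 20 lowest ratios with 200 or more counts in the higher library (symbols starting with LOC, Gm or ending in Rik left out), the 4 highest and 3 lowest members of each other list with 50 or more counts in the higher library, and cell type markers. Others are said to be named after their values were seen. Promoter sequences and names come from RefSeq tables of GRCm38.p6, and no coordinate was taken from the deposited tables.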

Additional observations from a re-analysis of the deposited data

How the results depend on the processing

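With 1 library per group, nothing separates the effect of FLAG-Drp1 from variation between cultures, and leaving out a replicate was not possible. No paired analysis was possible because each group has 1 library and the labels give no replicate numbers. Each of 11 alternatives was applied to the counts of genes, to the medians of the contractile and respiratory chain lists and to the named genes, and 36 of the 44 counts and medians stayed within 1.5 times the value reported (counts) or within the members' median counting interval (medians). The number of genes at least 2-fold higher, 174, was 2862 with no low-count filter, 54 with a minimum of 5 CPM and 110 with transcript rows summed. The number at least 2-fold lower, 77, was 2412, 7 and 48 under the same settings and 45 among protein-coding genes alone. The respiratory chain median of 0.31 was 0.12 with the length trend removed. The median over all genes stayed within 0.1 under every scaling. Of 46 list medians, 4 that lie near 0 changed sign with scaling to the library total and 5 with the length trend removed, among them the myogenic factors and the dystrophin complex. Of 70 listed or named genes at least 2-fold different, none changed sign under any alternative that gave it a value, 64 stayed beyond 2-fold with the length trend removed and 66 with a pseudocount of 2. Of 746 listed or named genes whose counting interval lay on 1 side of 0, 84 changed sign with the length trend removed.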

Other observations

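Several other gene groups were examined in rescue against KO. Proteasome subunits were above 0 for 35 of 36 tested genes (80.8% in the shortest length group of protein-coding genes), with a median log2 ratio of 0.23, and 0.13 with the length trend removed. The exception was Psmb8, a subunit of the immunoproteasome, with 145 counts in KO, 99 in rescue and 36 in WT (log2 ratio -0.55, interval -0.93 to -0.17). Interferon-response genes had a median of -0.06, with 9 of 27 above 0. Counts below that carry no library names stand in the order KO, rescue and WT. Rsad2, an antiviral enzyme, had 1010, 783 and 629 counts (log2 ratio -0.36, interval -0.50 to -0.23), and Bst2, which tethers budding virions, had 2175, 2545 and 1564 (log2 ratio 0.23, and 0.01 with the trend removed). Among cytokine genes Osmr, the oncostatin M receptor, was lower in rescue and stayed above WT, with 1480, 1017 and 247 counts (log2 ratio -0.54, interval -0.66 to -0.42). Genes of DNA replication and mitosis had 21 of 35 above 0 and a median of 0.07. None of them was 1.5-fold different, near the background of 3.81% higher and 2.77% lower. Cdk1, the mitotic kinase, had 675, 847 and 961 counts (log2 ratio 0.33, interval 0.18 to 0.48). Sterol and fatty acid synthesis genes had 21 of 28 above 0 and a median of 0.13, with Dhcr7, the last enzyme of cholesterol synthesis, at 864, 1165 and 994 counts (log2 ratio 0.43). Metallothionein Mt2, which binds zinc, had 63, 130 and 264 counts (log2 ratio 1.04, interval 0.60 to 1.51).

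Prr32, Car9 and the 5 lower genes below were chosen after their values were seen. Of the 41 genes whose interval lay wholly above 2-fold, Prr32, a proline-rich protein, had 1 count in KO, 26 in rescue and 42 in WT (log2 ratio 4.15, interval 2.10 to 10.06). Car9, a carbonic anhydrase that hypoxia is known to induce, had 4, 41 and 23 counts (log2 ratio 3.21, interval 1.90 to 5.30). The 5 genes whose interval lay wholly below 2-fold were Gm5611, H2-T-ps, Gm7030, Entpd4b and Gm6710. Such predicted genes, pseudogenes and duplicated genes can share reads with close copies, so their counts are uncertain. Gm5611 had 284 counts in KO, 89 in rescue and 244 in WT, and Entpd4b had 110, 21 and 73. Of the genes named by rule, Mir6236 had 911, 491 and 345 counts (log2 ratio -0.89, interval -1.05 to -0.73), and Lars2, mitochondrial leucyl-tRNA synthetase, had 32344, 23396 and 15546 (log2 ratio -0.46, interval -0.49 to -0.44). For both, KO was the highest library and WT the lowest. Whether reads from other places in the genome add to either count was not tested.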
